A study of Artemisia argyi with 3 samples.

Results

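The expression of 6 unigenes of 3-hydroxy-3-methylglutaryl-CoA reductase (HMGR) was examined in the leaves, roots and stems of *Artemisia argyi*. In the table they are written CL11002.Contig1_All (cloned as ArHMGR1), CL11002.Contig2_All (cloned as ArHMGR2), Unigene15525_All, CL1709.Contig1_All, Unigene40489_All and Unigene43015_All, and they are given here without the suffix. These 6 were taken by identifier, as unigenes the study assigned to HMGR, out of 88,591 unigenes in the expression table. The study assigned more unigenes to HMGR than these 6, and the others were not examined. The table pairs no identifier with a gene name, so neither the HMGR assignment nor the tissue labels could be checked against the sequences or against marker genes. The study compared leaf tissue with root and stem tissue of mature, untreated plants harvested from a herb garden. For each tissue, 1 library was made from material pooled over several plants, so there was 1 value per unigene and tissue, with no replicate, no error and no test. Every difference below is a difference between these libraries, and plant-to-plant variation cannot be told apart from tissue. Expression was given as FPKM, fragment numbers corrected for unigene length and library size, so that levels of unigenes of different length can be set side by side. No nucleotide or protein sequence of the 6 unigenes was used here.

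HMGR converts HMG-CoA to mevalonate with NADPH and is a major control point of the mevalonate pathway. In plants the enzyme is anchored in the endoplasmic reticulum and is usually encoded by a small gene family whose members differ in where and when they are expressed. The cytosolic mevalonate pathway supplies isopentenyl diphosphate mainly for sterols, triterpenes and sesquiterpenes, whereas the plastidial MEP pathway supplies mainly monoterpenes, diterpenes and carotenoids.

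The summed FPKM of all unigenes was 745,319 for leaf, 684,729 for root and 732,443 for stem. Unigenes with low FPKM take values in steps of single fragments, and these steps were 1.06 times as large in leaf as in root and of equal size in leaf and stem. The estimate kept only unigenes with near-equal FPKM in both tissues, so it could not show a large difference in depth. Similar numbers of clean reads are listed by the study for the 3 tissues. The fragment count behind any single FPKM value is unknown. Median-ratio scaling, which centres the libraries on the unigenes found in all 3 tissues, shifts a log2 ratio by -0.64 for leaf over root, by -0.02 for leaf over stem and by 0.62 for root over stem. Log2 ratios below were taken on the deposited FPKM after adding 1, which understates the difference for low values.

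ArHMGR1 had 10.3 FPKM in leaf, 59.5 FPKM in root and 144 FPKM in stem. Stem was the highest tissue for this unigene and leaf the lowest. ArHMGR2, the other contig of the same assembly cluster, had 8.08 FPKM in leaf, 175 FPKM in root and 10.7 FPKM in stem. Its level was high in root and low in both shoot tissues. Unigene15525, a singleton outside that cluster, had 17.5 FPKM in leaf, 222 FPKM in root and 12.9 FPKM in stem, with the highest FPKM of the 6 unigenes in root. Its distribution was close to that of ArHMGR2, with leaf and stem both far below root. The other 3 unigenes were low and were listed above 0 only in root. CL1709.Contig1 was listed at 0 in leaf, 2.05 FPKM in root and 0 in stem. Unigene40489 was listed at 0 in leaf, 2.09 FPKM in root and 0 in stem. Unigene43015 was listed at 0 in leaf, 1.92 FPKM in root and 0 in stem. Of these 6, a part of the unigenes the study assigned to HMGR, 5 were highest in root and 1 in stem. Of all unigenes in the table, 27.0% were highest in root and 35.9% in stem. None of the 6 was highest in leaf, the tissue in which 36.5% of all unigenes had their highest FPKM. Of the 3 abundant HMGR unigenes, 2 were highest in root and 1 in stem. Leaf was the highest tissue for 46.0%, root for 17.3% and stem for 36.6% of the 24,505 unigenes that exceeded 1 FPKM in each tissue, called shared unigenes below.

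**Figure D1:**
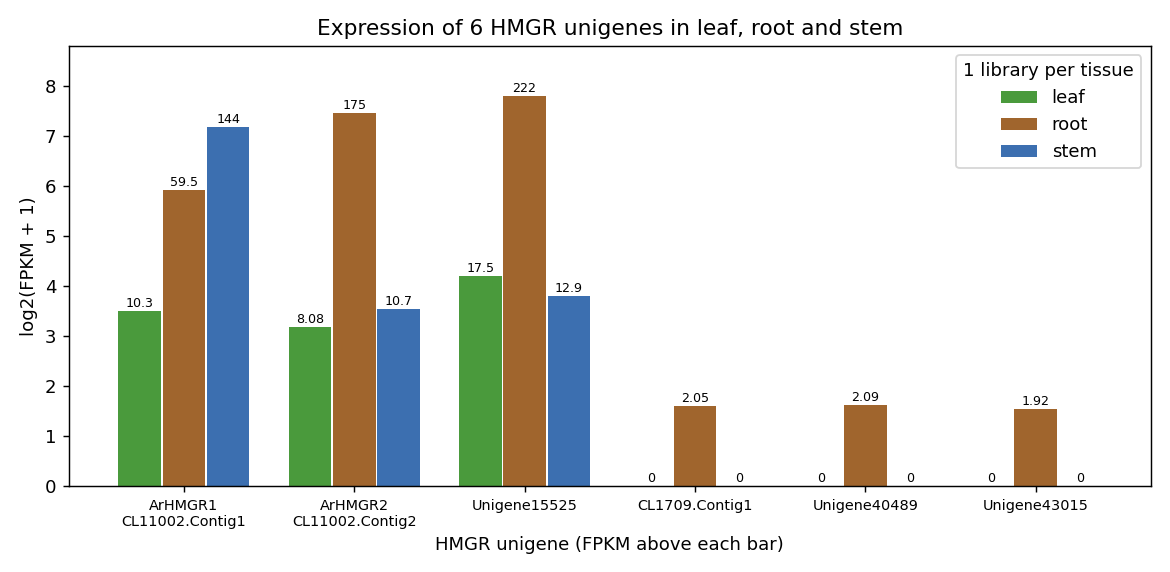
Expression of the 6 HMGR unigenes in leaf, root and stem, with 1 library per tissue. Bars show log2(FPKM + 1), and the FPKM value stands above each bar; Unigene15525 and ArHMGR2 are tallest in root (222 and 175 FPKM), ArHMGR1 in stem (144 FPKM), and 3 unigenes appear in root alone.

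Leaf tissue was set against root tissue to ask which unigenes of terpenoid synthesis are more abundant in the medicinal organ. All 6 HMGR unigenes were at least 2-fold lower in leaf than in root on the FPKM + 1 scale, and 0 were at least 2-fold higher. Of all unigenes, 18.0% were at least 2-fold lower in leaf and 20.2% at least 2-fold higher. For the 3 unigenes listed at 0 in leaf, the added 1 sets the size of the ratio, and no fold is given for them. Their calls stayed with 0.1 or 0.01 added instead. ArHMGR1 was 5.76-fold lower in leaf than in root by FPKM, a log2 ratio of -2.42. ArHMGR2 was 21.6-fold lower in leaf than in root, a log2 ratio of -4.28. Unigene15525 was 12.7-fold lower in leaf than in root, a log2 ratio of -3.59. Of these 3 unigenes ArHMGR2 had the lowest level in leaf and the widest gap to root. Of the other shared unigenes, 101 had a log2 ratio of leaf over root as low as or lower than that of ArHMGR2, 205 as low as or lower than that of Unigene15525 and 633 as low as or lower than that of ArHMGR1. The median log2 ratio was -2.02 over the 6 HMGR unigenes, where the values of the 3 listed at 0 in leaf are set by the added 1. It was 0.02 over all unigenes of the table and 0.43 over the shared unigenes. The study's discussion calls HMGR up-regulated in leaves and does not name the unigenes meant there.

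In the comparison of leaf with stem the 3 abundant HMGR unigenes parted. Only ArHMGR1 differed at least 2-fold, being 14.0-fold lower in leaf than in stem, a log2 ratio of -3.68. ArHMGR2 was 1.33-fold lower in leaf than in stem, a log2 ratio of -0.37, and Unigene15525 was 1.35-fold higher in leaf than in stem, a log2 ratio of 0.41. With 1 library per tissue, no spread is known against which the small differences of these last unigenes could be read. Thus 1 of the 6 HMGR unigenes was at least 2-fold lower in leaf and 0 were higher, against 16.5% and 12.3% of all unigenes. The gap of ArHMGR1 was among the widest of the shared unigenes, with 214 of the others as low or lower. The 3 unigenes seen in root alone gave no comparison here, since both tissues were listed at 0. The median log2 ratio of the 6 was 0.00 here, as it was over all unigenes, and the 3 listed at 0 in both tissues enter it at 0.

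Between root and stem the 3 abundant unigenes differed in opposite directions. ArHMGR2 was 16.3-fold higher in root than in stem, a log2 ratio of 3.91, and Unigene15525 was 17.2-fold higher in root than in stem. In the same libraries ArHMGR1 was 2.43-fold lower in root than in stem, a log2 ratio of -1.26. With median-ratio scaling ArHMGR1 had a log2 ratio of -0.65, below the 2-fold threshold but in the same direction, and its lower level in root therefore depended on the scaling for its size. Of the 6 HMGR unigenes 5 were at least 2-fold higher in root than in stem, 3 of them with a listed 0 in stem, and 1 was at least 2-fold lower. Of all unigenes 14.2% were at least 2-fold higher in root and 19.8% at least 2-fold lower. Only 34 of the shared unigenes had a higher ratio of root over stem than ArHMGR2, and 31 a higher one than Unigene15525. Both were also more than 8-fold higher in root than in leaf and in stem alike, as were 63 of the 24,505 shared unigenes, or 0.257%.

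ArHMGR1 and ArHMGR2 are the only contigs of cluster CL11002 in the table. Contigs of a cluster are joined by sequence overlap, and fragments that align to both were divided between them by the estimation with RSEM, so the sum of the contigs is more certain than the split. The 2-contig sum was 18.4 FPKM in leaf, 234 FPKM in root and 155 FPKM in stem. The share of ArHMGR1 in this total was 56.1% for leaf, 25.4% for root and 93.1% for stem. In leaf the contigs were therefore near parity at a low level, in root ArHMGR2 was 2.94 times as abundant as ArHMGR1, and in stem ArHMGR1 was 13.5 times as abundant as ArHMGR2. The sum itself was 12.7-fold lower in leaf than in root, 8.42-fold lower in leaf than in stem and 1.51-fold higher in root than in stem. On deposited FPKM the cluster total thus differed less between root and stem than either contig did. With median-ratio scaling the total differed more than ArHMGR1 did. The scaled values were then 78.8 in root and 124 in stem for ArHMGR1, and 232 and 9.23 for ArHMGR2. Whether the contigs are separate genes, alleles or splice forms cannot be told from the expression values.

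**Figure D2:**
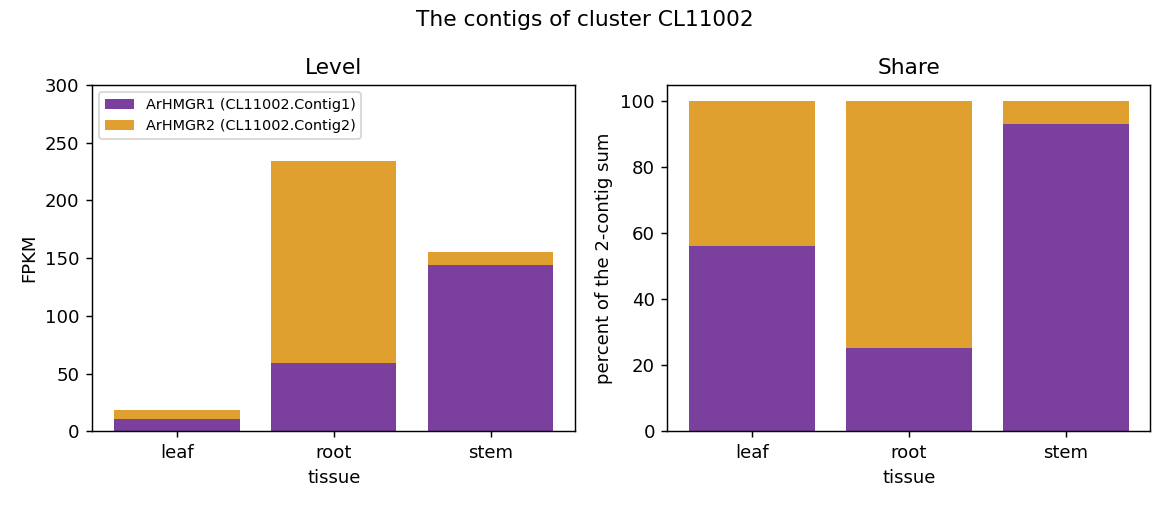
FPKM of ArHMGR1 and ArHMGR2, the contigs of cluster CL11002, stacked for each tissue (left), and the percentage of their sum held by each (right). ArHMGR1 holds 93.1% of the sum in stem and 25.4% in root, and the leaf total of 18.4 FPKM is far below the 234 FPKM of root.

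The difference between the contigs was set beside that of other contigs of the assembly. Of its FPKM summed over the 3 tissues, ArHMGR1 drew 4.82% from leaf, 27.8% from root and 67.4% from stem, whereas ArHMGR2 drew 4.17% from leaf, 90.3% from root and 5.53% from stem. The Euclidean distance between these tissue shares was 87.9 percentage points. There were 10,298 pairs of contigs from 1 cluster in which both contigs reached at least 10 FPKM in some tissue, drawn from 2,675 clusters. Their median distance was 14.4 percentage points, with quartiles of 6.80 and 26.9, and 98.9% of the pairs were closer than ArHMGR1 and ArHMGR2. The highest tissue differed between the contigs in 34.5% of the pairs, and 5.60% of the pairs had 1 contig highest in root and the other in stem, as the HMGR contigs did. Large clusters give many pairs that share contigs. In the 1,825 clusters with exactly 2 such contigs, a set chosen after the values were seen, 99.0% of the pairs were closer than the HMGR contigs and 17 were farther apart. These figures describe where the HMGR pair lies in the table and are not a test.

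**Figure D3:**
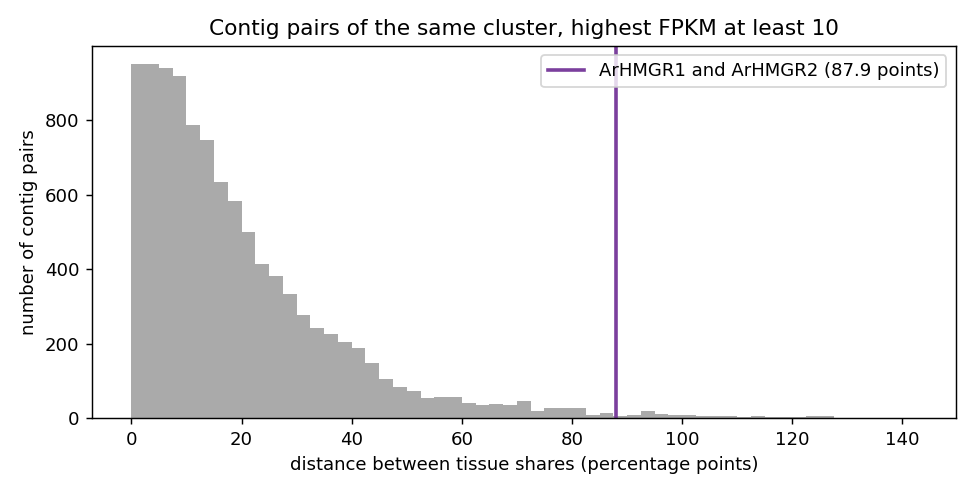
Histogram of the distance, in percentage points, between the tissue shares of contigs from the same cluster, for 10,298 pairs whose contigs both reach at least 10 FPKM in some tissue. The vertical line marks ArHMGR1 and ArHMGR2 at 87.9 points, in the sparse upper end of the distribution.

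Unigene15525 lay outside the cluster but close to ArHMGR2. It drew 6.94% of its summed FPKM from leaf, 87.9% from root and 5.12% from stem, a distance of 3.66 percentage points from the shares of ArHMGR2 and of 86.6 points from those of ArHMGR1. By tissue share, ArHMGR2 was therefore nearer to a unigene of another assembly group than to the other contig of its own cluster.

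The order of the HMGR unigenes within a tissue also differed. In leaf Unigene15525 was first of the 6 (rank 7,031 of the 88,591 unigenes by FPKM), followed by ArHMGR1 (rank 10,876) and ArHMGR2 (rank 12,985). In root Unigene15525 again led (rank 457), and ArHMGR2 (rank 613) came before ArHMGR1 (rank 1,943). In stem ArHMGR1 led (rank 791), far ahead of Unigene15525 (rank 9,534) and ArHMGR2 (rank 10,962). In root each of these 3 unigenes exceeded at least 97.8% of the table, in stem only ArHMGR1 did so (99.1%), and in leaf none did, Unigene15525 coming closest with 92.1%. The 3 unigenes seen in root alone held ranks 26,560 (Unigene40489), 26,955 (CL1709.Contig1) and 28,225 (Unigene43015) there.

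**Figure D4:**
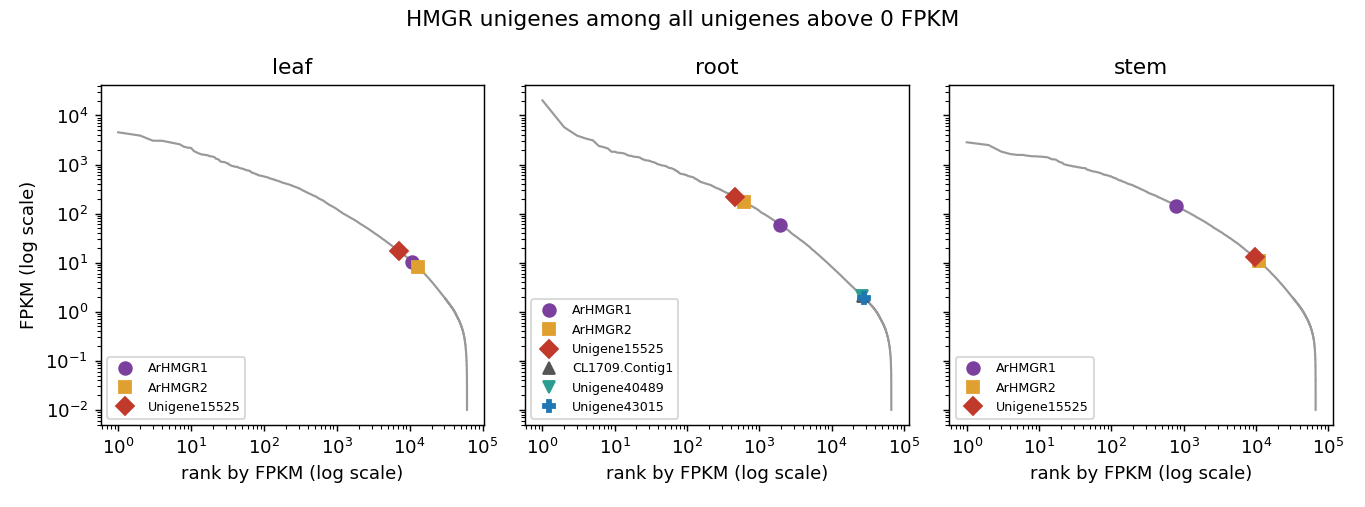
FPKM against rank for all unigenes above 0 FPKM in leaf, root and stem (grey line, both axes logarithmic), with the HMGR unigenes marked. Unigene15525 and ArHMGR2 stand at ranks 457 and 613 in root and ArHMGR1 at rank 791 in stem. In leaf the highest of the 6 HMGR unigenes is at rank 7,031.

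The 6 unigenes summed to 35.9 FPKM in leaf, 462 FPKM in root and 168 FPKM in stem. Most unigenes that the study assigned to HMGR are not among the 6, so these sums are not the total of the enzyme. Rescaled to an equal sum per library (TPM), leaf had a total of 48.2, root of 675 and stem of 229. The total was 12.9-fold lower in leaf than in root, 4.68-fold lower in leaf than in stem and 2.75-fold higher in root than in stem. Leaf was lowest, and different unigenes made up the totals of root and stem. In leaf Unigene15525 gave 48.7% of the sum, ArHMGR1 28.8% and ArHMGR2 22.5%. In root Unigene15525 gave 48.0%, ArHMGR2 37.9% and ArHMGR1 12.9%. In stem ArHMGR1 alone gave 85.9%, with 7.69% from Unigene15525 and 6.38% from ArHMGR2. Leaf and root therefore shared the same leading unigene, whereas the stem total rested on 1 unigene. Without ArHMGR1 the log2 ratio of the sum of leaf over stem was 0.11, in place of -2.19. Without Unigene15525 the log2 ratio of root over stem was 0.63, in place of 1.45, without ArHMGR2 it was 0.86, and without ArHMGR1 it was 4.03.

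The 3 unigenes listed at 0 in leaf and stem added 6.06 FPKM to the root total, or 1.31% of it. The same listing, above 0 in root and at 0 in leaf and stem, was found for 12,884 unigenes, or 14.5% of the table, against 7.43% listed above 0 in leaf alone and 9.13% in stem alone. Root FPKM over the 12,884 had a median of 1.32, with quartiles of 0.71 and 2.14. CL1709.Contig1, Unigene40489 and Unigene43015 thus lay between the median and the upper quartile of these unigenes, and 69.4% to 73.7% of them were lower. The range of their values, 1.92 to 2.09 FPKM, held 591 of the 12,884. CL1709.Contig1 is named as a contig of a cluster, but no other contig of CL1709 is in the table. The table holds fewer unigenes than the study assembled, so other contigs of CL1709 may be missing from it. A listed 0 may be a level too low for the depth of that library, and the origin of transcripts seen in root alone was not tested.

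The unigenes whose levels were most like those of the abundant HMGR unigenes were sought among the 24,505 shared unigenes by Euclidean distance between log2(FPKM + 1) over the 3 tissues. Nearest to ArHMGR1 was Unigene8627 at a distance of 0.26, with 10.2 FPKM in leaf, 69.5 FPKM in root and 131.0 FPKM in stem, and next was CL6426.Contig1 at 0.36. Nearest to ArHMGR2 was CL7365.Contig1 at a distance of 0.26, with 8.17 FPKM in leaf, 186 FPKM in root and 12.9 FPKM in stem, and next was CL10226.Contig3 at 0.35. Nearest to Unigene15525 was Unigene7326 at a distance of 0.59, with 22.5 FPKM in leaf, 159 FPKM in root and 13.2 FPKM in stem, and next was CL5655.Contig1 at 0.60. ArHMGR2 itself was at 1.11 from Unigene15525, so the closest matches of each HMGR unigene in level and tissue lay outside the 6 HMGR unigenes. None of these 6 identifiers is paired with a gene name here.

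The other 5 unigenes cloned in the study belong to the mevalonate and MEP pathways and cover only some of their steps. ArMVD (Unigene7594), mevalonate diphosphate decarboxylase, works downstream of HMGR and forms isopentenyl diphosphate. It had 16.2 FPKM in leaf, 12.0 FPKM in root and 11.8 FPKM in stem. Its levels were thus nearly even where those of each abundant HMGR unigene examined differed by over 10-fold. ArDXS (Unigene11038), the synthase that opens the MEP pathway, had 4.16 FPKM in leaf, 2.01 FPKM in root and 71.8 FPKM in stem. Like ArHMGR1 it was highest in stem, but unlike ArHMGR1 it was lowest in root. ArDXR (CL1159.Contig3), the reductoisomerase of the next step, had 11.0 FPKM in leaf, 4.83 FPKM in root and 5.75 FPKM in stem. ArHDS (Unigene5791), which makes the diphosphate precursor for the last step, had 142 FPKM in leaf, 32.4 FPKM in root and 70.6 FPKM in stem. ArHDR (CL1787.Contig4), the reductase of that last step, had 23.4 FPKM in leaf, 12.2 FPKM in root and 40.3 FPKM in stem. All 4 cloned MEP unigenes had their lowest FPKM in root, whereas both cloned HMGR unigenes had theirs in leaf. The lowest FPKM of ArMVD, the other cloned mevalonate unigene, was in stem by a small margin, and that of Unigene15525 was also in stem. The study assigned further unigenes to each of these 4 MEP enzymes, which were not examined here. With median-ratio scaling both HMGR unigenes and ArDXS, ArHDS and ArHDR kept their lowest tissue, and ArDXR became lowest in stem. Relative to root on the FPKM + 1 scale, leaf was at least 2-fold higher for 2 of these other 5 cloned unigenes (ArDXR and ArHDS) and lower for 0, whereas both cloned HMGR unigenes were at least 2-fold lower. Without the added 1, ArDXS was also 2.07-fold higher in leaf than in root. The call of ArDXR was lost with TPM, at a log2 ratio of 0.97, and with median-ratio scaling, at 0.49, while ArMVD had a log2 ratio of 0.40 on FPKM and -0.20 after that scaling. Relative to stem, leaf was at least 2-fold higher for 0 of the 5 and lower for 1, ArDXS, with a log2 ratio of -3.82 near the -3.68 of ArHMGR1. The 0 rests on the added 1, since ArHDS was 2.01-fold higher in leaf than in stem by FPKM alone. Root was at least 2-fold higher than stem for 0 of the 5 and lower for 3 (ArDXS, ArHDS and ArHDR), of which ArHDS, at a log2 ratio of -1.10, had -0.50 with median-ratio scaling. Within root, ArHMGR2 had the highest FPKM of the 7 cloned unigenes, within stem ArHMGR1 did, and within leaf ArHDS did.

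**Figure D5:**
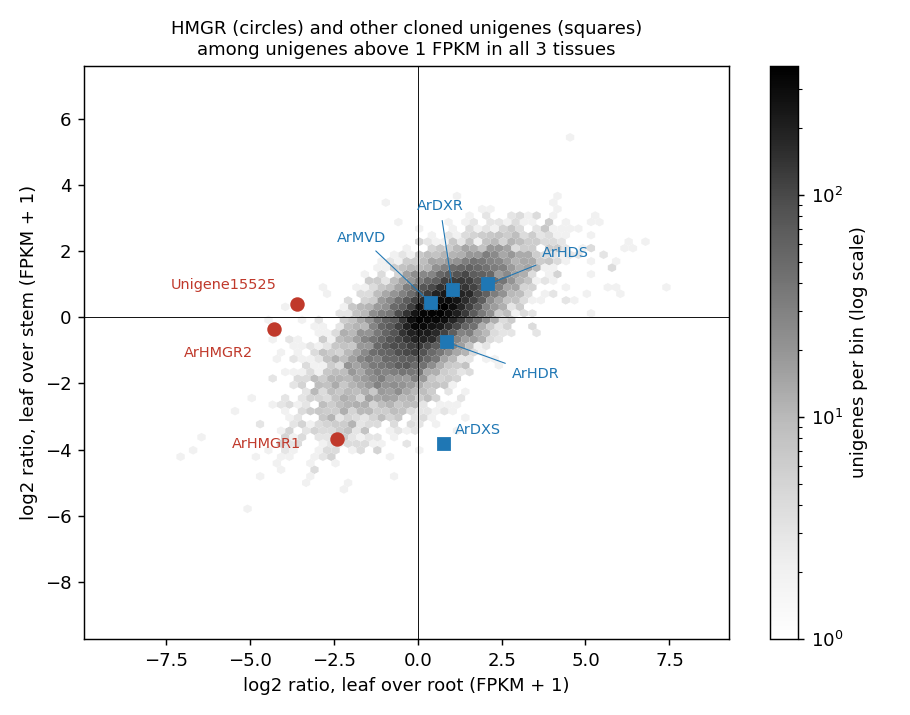
Log2 ratio of leaf over root (x axis) against leaf over stem (y axis), on FPKM + 1, for the 24,505 unigenes above 1 FPKM in all 3 tissues (grey, darker where more unigenes fall), with the HMGR unigenes as circles and the other cloned unigenes as squares. The 3 HMGR unigenes shown all lie left of 0, with ArHMGR1 low on the y axis at -3.68 and ArHMGR2 and Unigene15525 near 0, and the squares all lie right of 0, although ArMVD moves to -0.20 with median-ratio scaling.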

How the data were processed

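Reads of the leaf, root and stem libraries were filtered (Trimmomatic is named in the submitters' processing notes) and assembled de novo by the authors with Trinity and TGICL, and clean reads were mapped to the unigenes with Bowtie2. The values the authors deposited are FPKM estimated by RSEM, written to 2 decimals, for 88,591 unigenes. FPKM divides by the mapped fragments of a library, so a few very abundant unigenes lower all other values there.

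The log2 ratio of FPKM + 1, a 2-fold threshold, ranks (ties share the best rank), tissue shares and distances were computed over the whole table. Python 3.11.15, numpy 2.4.6, pandas 2.3.3 and matplotlib 3.10.9 were used. The 2-fold calls, the median-ratio scaling and the single-fragment steps were tried on simulated data, and the distances on small made-up examples. Ranks were not tried in this way. With 1 library per tissue no test was run, and no p-value is given. The HMGR unigenes and lists were chosen with earlier results of these data known. Named unigenes were the 6 HMGR unigenes, other contigs of their clusters (0 found besides ArHMGR1 and ArHMGR2), the 5 other cloned unigenes, and for each HMGR unigene above 1 FPKM in all 3 tissues the 2 nearest unigenes. Alternatives were pseudocounts of 0.1 and 0.01, a filter at 1 FPKM, TPM and median-ratio scaling. Other unigenes that the study assigned to HMGR, annotations and cloned sequences were not analysed here.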

Additional observations from a re-analysis of the deposited data

How the results depend on the processing

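No paired analysis was possible because there was 1 library per tissue, and for the same reason no library could be left out. Pseudocounts of 0.1 and 0.01 and rescaling to TPM left every 2-fold call of the HMGR unigenes as it was, and median-ratio scaling removed only that of ArHMGR1 for root over stem, with a log2 ratio of -0.65. With a filter that kept unigenes above 1 FPKM in both tissues, and no pseudocount, the number at least 2-fold apart was 3 instead of 6 between leaf and root and 3 instead of 6 between root and stem, because the 3 unigenes listed at 0 in leaf and stem were not compared. For the summed FPKM, leaving out the most abundant unigene turned the log2 ratio of leaf over stem to 0.11 (without ArHMGR1) and lowered that of root over stem to 0.63 (without Unigene15525), while that of leaf over root stayed between -4.28 and -3.32 with TPM, with median-ratio scaling and without any 1 of the 3 abundant unigenes. Leaving out ArHMGR2 gave 0.86 for root over stem and leaving out ArHMGR1 gave 4.03, both chosen after the values were seen. The distance between ArHMGR1 and ArHMGR2 was 78.7 percentage points after median-ratio scaling and 86.8 with TPM, with 98.1% and 98.7% of contig pairs closer, and 94.5% were closer when contigs of at least 1 FPKM were admitted. Among the unigenes above 1 FPKM in root, 34.8% were below CL1709.Contig1, 35.8% below Unigene40489 and 31.8% below Unigene43015, in place of 69.5%, 69.9% and 68.0% of the whole table. The nearest unigenes of ArHMGR1, ArHMGR2 and Unigene15525 were the same 2 each with TPM and with median-ratio scaling, both tried after the values were seen.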
